A study of Homo sapiens with 30 samples.

Results

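The 9 genes described here belong to the YAP and TEAD pathway and were named one by one: YAP1 and WWTR1 (which encodes TAZ), TEAD1 and TEAD4, CTGF, CYR61 and ANKRD1, and AMOTL2 and LATS2. All 9 were present in a table of nascent transcription (PRO-Seq) that held 20367 gene symbols, and 8 of them had a mean of at least 10 reads in both regions counted. The exception was WWTR1. Names follow that table; current nomenclature lists CTGF as CCN2 and CYR61 as CCN1.

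Measurements were made in G401, a malignant rhabdoid tumour (MRT) line that lacks SNF5, the SWI/SNF chromatin remodelling subunit encoded by SMARCB1. Each population carried a doxycycline-inducible lentiviral construct with an HA tag, selected with G418. The construct encoded EGFP as the control, SNF5, or OmoMYC, a dominant-negative form of MYC, and all populations received 1 μg/ml doxycycline for 24 h. PRO-Seq and ATAC-Seq, which maps open chromatin, covered 3 samples of each construct (for PRO-Seq, plates of a condition were combined), and the comparisons of SNF5 and of OmoMYC share the same EGFP samples. The study describes the samples of a construct as independent experiments, while the labels do not state whether they came from separate transductions. SMARCB1 had 1 to 6 gene body reads in the EGFP and OmoMYC samples and 2870 to 4467 in the SNF5 samples, as the labels require.

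In the Hippo pathway, LATS kinases phosphorylate the coactivators YAP and TAZ and keep them out of the nucleus. Unphosphorylated YAP and TAZ bind DNA through TEAD transcription factors and raise genes such as CTGF, CYR61 and ANKRD1. AMOTL2, which retains YAP outside the nucleus, and LATS2 are themselves raised by YAP and TAZ and act as negative feedback.

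TEAD factors recognise GGAATG. RefSeq promoter windows (GRCh38.p14, 250 bases before to 50 after a start) were found for 6 of the 9 genes, and 5 of those 6 held GGAATG or its reverse complement CATTCC. Since AMOTL2 and WWTR1 have 2 windows each, this was 5 of 8 windows, against 14.0% of all 35116 windows in the same set. Windows around matches are shown 5′ to 3′ on the strand of the gene, with the match in capitals, because the ANKRD1 pair lies where ATAC-Seq peaks were called in the SNF5 samples alone. Positions count from the annotated start. The matches in ANKRD1 begin at -220 (chr10:90921290-90921319) and -128 (chr10:90921198-90921227), those in CTGF at -169 (chr6:131951524-131951553) and -95 (chr6:131951450-131951479), all on the minus strand:
ANKRD1 -220: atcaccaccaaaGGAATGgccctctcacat
ANKRD1 -128: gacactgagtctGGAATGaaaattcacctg
CTGF -169: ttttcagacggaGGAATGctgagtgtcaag
CTGF -95: ggaggaatgcgaGGAATGtccctgtttgtg
A further CTGF match at -104 stands in lower case within the last window. Single matches were present in YAP1 at -162 (chr11:102110273-102110302, plus strand), in AMOTL2 at -69 (chr3:134374499-134374528, minus strand) and in LATS2 at 10 (chr13:21061560-21061589, minus strand):
YAP1 -162: cgggagtgtgcaGGAATGtagcaacttgca
AMOTL2 -69: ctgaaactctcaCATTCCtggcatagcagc
LATS2 10: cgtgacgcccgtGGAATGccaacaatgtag
CACGTG, the E-box that MYC recognises, was present in the windows of YAP1 and LATS2 and in 7.26% of all windows. TGANTCA (N, any base), searched as the AP-1 motif, was present in 1 of the 8 windows, that of ANKRD1, and in 7.71% of all windows. These motifs were searched on both strands, and WWTR1 had no match to any of them.

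Gene body reads count engaged RNA polymerase from 1 kb past the start to the end of the gene. Levels are given as scaled RPKM, reads per kb of gene body and per scaled library size, which allows genes to be compared. They are averages over a cell population, so fewer transcribing cells and less transcription per cell cannot be told apart. In the EGFP samples CYR61 (45.2 ± 4.48, SD, n = 3) and CTGF (39.3 ± 7.29) were highest, followed by AMOTL2 (18.9 ± 2.22), LATS2 (3.07 ± 0.120), YAP1 (2.46 ± 0.182), TEAD1 (2.28 ± 0.291), TEAD4 (1.52 ± 0.225), WWTR1 (1.26 ± 0.0651) and ANKRD1 (0.409 ± 0.264). Sample ranges overlapped between the neighbours CYR61 and CTGF, YAP1 and TEAD1, and TEAD4 and WWTR1, and not between the other neighbours.

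With SNF5, transcription of all 3 classical targets rose, ANKRD1 most. TEAD1 rose slightly and TEAD4 fell slightly, whereas YAP1 and both feedback inhibitors did not pass the test. In total 5 of the 8 genes tested changed (4 higher, 1 lower; edgeR's quasi-likelihood test with the replicate number as a block, Benjamini-Hochberg adjusted p under 0.05), against 34.5% of all 11171 genes tested, 12.4% higher and 22.1% lower. With OmoMYC, 1 of the 8, CYR61, changed, against 12.4% of all genes. The median log2 fold change of the 8 genes was 0.23 with SNF5 and 0.05 with OmoMYC, beside -0.08 and -0.03 over all genes tested. Members and lists were chosen with earlier results of these data known. Counts set against all genes, here and below, are therefore descriptions and not independent tests.

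**Figure D1:**
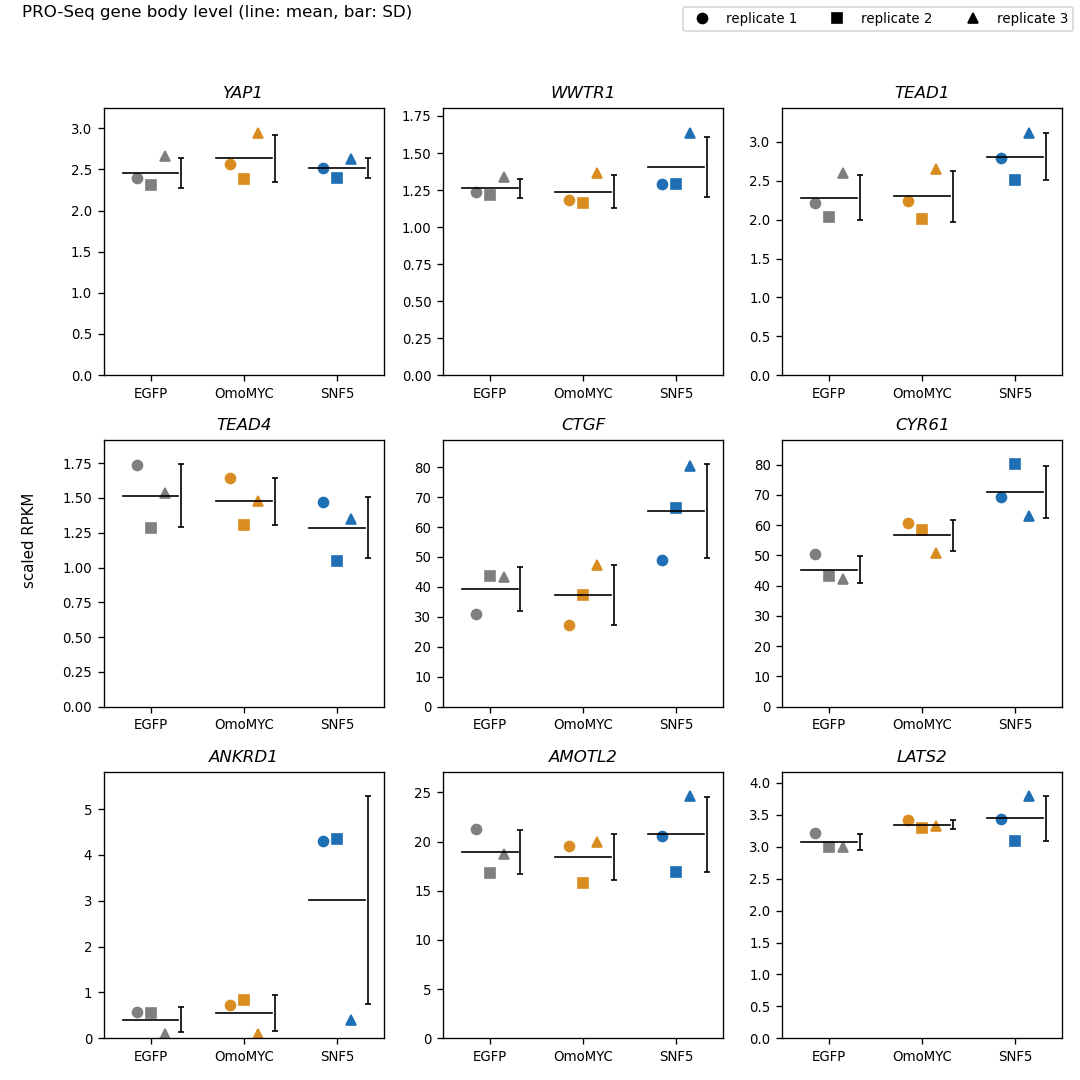
PRO-Seq gene body level of each gene in every sample, in scaled RPKM, with the mean (line) and SD (bar) of each construct and a marker shape for each replicate number. CTGF and CYR61 were higher in every SNF5 sample than in any EGFP sample, and ANKRD1 was low in replicate 3 of every construct.

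The coactivator genes moved little. YAP1 (chr11:101981192-102104154, hg19, plus strand) had levels of 2.40, 2.31 and 2.66 in the EGFP samples, 2.57, 2.39 and 2.95 in the OmoMYC samples and 2.52, 2.40 and 2.63 in the SNF5 samples. The 3 groups overlapped, and the log2 fold change was 0.04 (SE 0.0501, edgeR adjusted p = 0.60) with SNF5 and 0.10 (SE 0.0501, edgeR adjusted p = 0.206) with OmoMYC. WWTR1 (chr3:149235022-149421060, minus strand) had 1.24, 1.22 and 1.34 with EGFP, 1.18, 1.16 and 1.37 with OmoMYC and 1.29, 1.29 and 1.64 with SNF5. Its groups overlapped as well. Tested after a filter on gene body reads alone, a choice made after seeing the data, WWTR1 gave log2 fold changes of 0.15 (SE 0.0570, edgeR adjusted p = 0.0731) with SNF5 and -0.03 (SE 0.0570, edgeR adjusted p = 0.769) with OmoMYC. WWTR1 had 0 or 1 promoter-proximal reads in every sample. The start used for its window lies 45232 bp upstream of the nearest WWTR1 start with open chromatin in all 9 ATAC-Seq samples.

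TEAD factors carry YAP and TAZ to DNA, and both TEAD genes among the 9 changed with SNF5, in opposite directions. TEAD1 (chr11:12695969-12966284, plus strand) had levels of 2.22, 2.03 and 2.60 with EGFP, 2.24, 2.01 and 2.65 with OmoMYC and 2.80, 2.52 and 3.12 with SNF5. Groups overlapped over all samples, but each SNF5 sample was above the EGFP sample of the same number, and TEAD1 rose 1.23-fold (log2 0.30, SE 0.0458, edgeR adjusted p = 0.00217). TEAD4 (chr12:3068478-3149842, plus strand) had 1.73, 1.29 and 1.53 with EGFP, 1.65, 1.31 and 1.48 with OmoMYC and 1.47, 1.05 and 1.35 with SNF5. Each SNF5 sample was below its EGFP counterpart, and TEAD4 fell by 0.24 on the log2 scale (SE 0.0555, edgeR adjusted p = 0.0118). Neither passed the test with OmoMYC (log2 0.01 and -0.03, edgeR adjusted p = 0.908 and 0.699). Without replicate 1 or without replicate 2, the SNF5 changes no longer passed (TEAD1 edgeR adjusted p = 0.0830 and 0.0597, TEAD4 0.121 and 0.160). Of the other TEAD genes, which belong to the regulator list described last, TEAD2 fell by 0.51 on the log2 scale with SNF5 (SE 0.0687, edgeR adjusted p = 0.00128) and TEAD3 was at 0.03 (SE 0.0667, edgeR adjusted p = 0.764).

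CTGF (chr6:132269317-132272518, minus strand), a secreted matrix-associated protein, had gene body levels of 30.9, 43.8 and 43.2 in the EGFP samples, 27.3, 37.3 and 47.3 in the OmoMYC samples and 48.9, 66.5 and 80.3 in the SNF5 samples. Every SNF5 sample was above every EGFP and every OmoMYC sample. CTGF rose 1.65-fold with SNF5 (log2 0.72, SE 0.0748, edgeR adjusted p = 0.000368), and the OmoMYC value was -0.09 (SE 0.0751, edgeR adjusted p = 0.423). Between SNF5 and OmoMYC the log2 difference was 0.81 (SE 0.0749, edgeR adjusted p = 0.000337).

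CYR61 (chr1:86046444-86049648, plus strand), a secreted relative of CTGF, was the member called with both constructs. Its levels were 50.3, 43.2 and 42.0 with EGFP, 60.6, 58.4 and 50.9 with OmoMYC and 69.3, 80.1 and 63.1 with SNF5. The 3 groups did not overlap: EGFP was lowest, OmoMYC intermediate and SNF5 highest. CYR61 rose 1.56-fold with SNF5 (log2 0.65, SE 0.0775, edgeR adjusted p = 0.000747) and 1.25-fold with OmoMYC (log2 0.32, SE 0.0774, edgeR adjusted p = 0.0339). The difference between SNF5 and OmoMYC was itself tested and was 0.32 on the log2 scale (SE 0.0770, edgeR adjusted p = 0.0237). Without replicate 1 or without replicate 2 the OmoMYC change (edgeR adjusted p = 0.374 and 0.360) and the difference between constructs (0.105 and 0.164) no longer passed.

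ANKRD1 (chr10:92671857-92681032, minus strand), an ankyrin repeat protein best known from muscle, was the gene that changed most. It had 160, 135 and 39 gene body reads in the EGFP samples, 203, 202 and 40 in the OmoMYC samples and 1423, 1274 and 143 in the SNF5 samples. Replicate 3 was lowest in each construct, so the groups overlapped, while within each replicate number SNF5 was highest. At scaled levels the ratio of SNF5 to EGFP was 7.60, 7.82 and 3.80 in replicates 1, 2 and 3. The fitted rise was 6.63-fold (log2 2.73, SE 0.184, edgeR adjusted p = 4.58e-05). With OmoMYC the log2 value was 0.38 (SE 0.197, edgeR adjusted p = 0.213), and SNF5 exceeded OmoMYC by 2.35 (SE 0.177, edgeR adjusted p = 0.000117).

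The feedback inhibitors did not pass the test with either construct. AMOTL2 (chr3:134074190-134093406, minus strand) had levels of 21.3, 16.8 and 18.7 with EGFP, 19.5, 15.8 and 20.0 with OmoMYC and 20.6, 16.9 and 24.6 with SNF5. LATS2 (chr13:21547176-21635722, minus strand) had 3.21, 3.00 and 3.00 with EGFP, 3.42, 3.29 and 3.32 with OmoMYC and 3.44, 3.09 and 3.80 with SNF5. AMOTL2 groups overlapped throughout, while every OmoMYC sample was above every EGFP sample for LATS2. With SNF5 the log2 values were 0.12 (SE 0.0792, edgeR adjusted p = 0.264) for AMOTL2 and 0.16 (SE 0.0646, edgeR adjusted p = 0.0795) for LATS2. With OmoMYC they were -0.05 (SE 0.0792, edgeR adjusted p = 0.727) and 0.12 (SE 0.0646, edgeR adjusted p = 0.220).

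**Figure D2:**
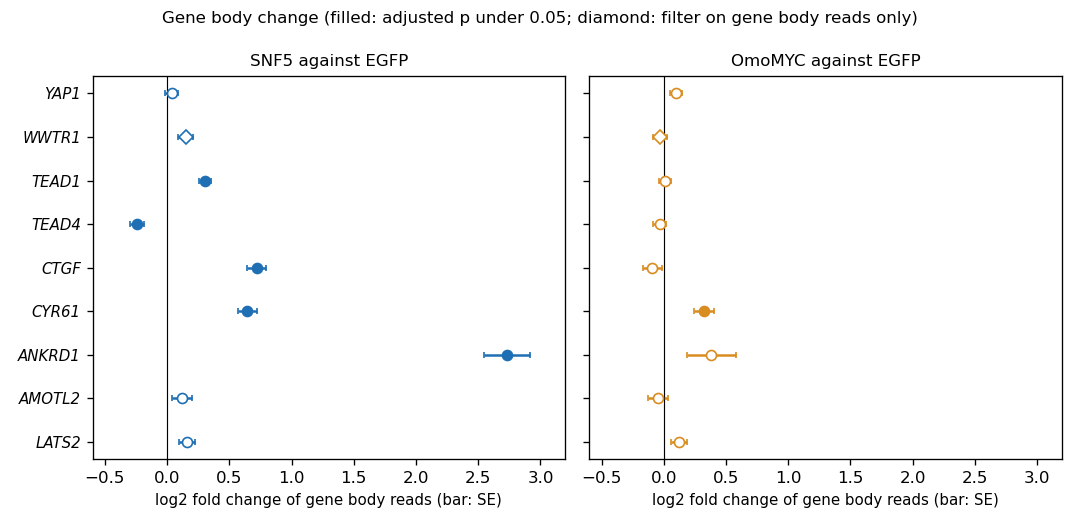
Log2 fold change of gene body reads against EGFP (x axis, bar: SE) for each gene, with SNF5 on the left and OmoMYC on the right. Filled points have an adjusted p under 0.05, and ANKRD1 with SNF5 lies farthest from 0, at 2.73.

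SNF5 and OmoMYC were also compared directly, and 5 of the 8 genes differed (ANKRD1, CTGF, CYR61 and TEAD1 higher with SNF5, TEAD4 lower), against 16.1% of all genes, 7.58% higher and 8.48% lower. All of these gene body calls rest on the comparison within replicate numbers. In a fit without the block none of the 8 passed for either construct: with SNF5 the edgeR adjusted p was 0.0733 for CYR61, 0.274 for CTGF, 0.301 for ANKRD1, 0.413 for TEAD1 and 0.586 for TEAD4, and with OmoMYC it was 0.611 for CYR61.

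Promoter-proximal reads were counted in the densest 50 bp near the start, where polymerase pauses. Depth there was lower, with totals of 517824 to 671718 reads in the samples of replicate 1 and 2024662 to 3381190 in the others, against 28388012 to 46859674 gene body reads per sample. With SNF5, ANKRD1 and CTGF rose (2 of 8 genes, against 4.31% of all genes tested). ANKRD1 had 2, 51 and 5 promoter-proximal reads with EGFP, 6, 123 and 6 with OmoMYC and 16, 451 and 7 with SNF5. Replicate 2 supplied most of these reads in every construct. The log2 change was 2.53 with SNF5 (SE 0.346, edgeR adjusted p = 5.54e-06), 1.57 (edgeR adjusted p = 0.468) without replicate 2, and 1.18 with OmoMYC (SE 0.372, edgeR adjusted p = 0.0971).

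CTGF had 98, 1024 and 621 promoter-proximal reads with EGFP, 123, 937 and 673 with OmoMYC and 237, 1903 and 859 with SNF5. Each SNF5 sample was above the EGFP sample of its number, and the log2 change was 0.71 (SE 0.214, edgeR adjusted p = 0.0477). This call was lost without replicate 1 (edgeR adjusted p = 0.107), without replicate 2 (0.531) and when SNF5 and EGFP samples were fitted alone (0.0735). CYR61, whose gene body reads rose, had 164, 327 and 451 promoter-proximal reads with EGFP, 249, 318 and 279 with OmoMYC and 320, 362 and 259 with SNF5. After scaling, SNF5 was above EGFP in replicate 1 and below it in replicates 2 and 3, and the log2 value was -0.08 (SE 0.229, edgeR adjusted p = 0.870).

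The remaining genes did not pass with SNF5: the log2 values were -0.44 for YAP1, 0.53 for TEAD1, 0.05 for TEAD4, 0.23 for AMOTL2 and 0.29 for LATS2 (edgeR adjusted p from 0.267 to 0.924). With OmoMYC edgeR called 0 of 8 genes, against 1.83% of all genes tested. ANKRD1 alone of the 8 had an unadjusted p under 0.05 there, against 1732 of all 11171 genes tested. DESeq2 also called 0 of 8, a count for which no share of all genes is given. Between SNF5 and OmoMYC 1 of 8, ANKRD1, differed (log2 1.35, SE 0.309, edgeR adjusted p = 0.0208), against 0.797% of all genes, and DESeq2 did not call it (adjusted p = 0.0953). Without the replicate block no promoter-proximal change of these genes passed (edgeR adjusted p = 1.00 for ANKRD1 and CTGF with SNF5).

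**Figure D3:**
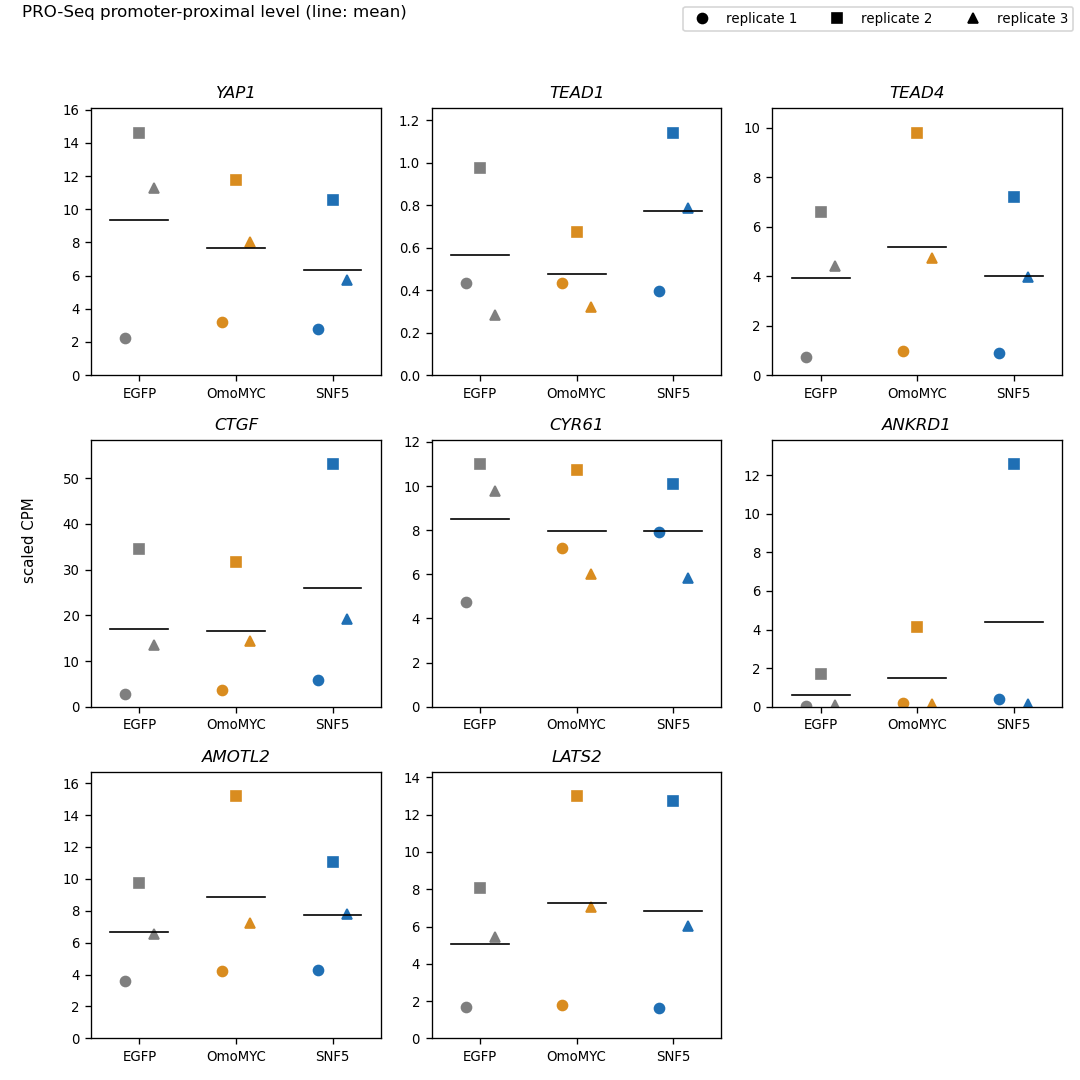
PRO-Seq promoter-proximal level of the 8 genes tested in every sample, in scaled CPM (reads per scaled library size), with the mean of each construct as a line. Replicate 2 was the highest sample of each construct for ANKRD1 and CTGF, and the ANKRD1 level of SNF5 replicate 2 stood at 12.6 beside 0.396 and 0.157 in the other two.

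The pausing index, the promoter-proximal density divided by the gene body density, passed for 0 of 8 genes in each comparison, against 3.66% of all genes with SNF5, 2.26% with OmoMYC and 1.23% between them (edgeR). An unadjusted p under 0.05 was reached by 2 of the 8 genes with SNF5, 0 with OmoMYC and 1 between them. Of all 11171 genes tested, 2075, 1733 and 1544 reached it. The index of CYR61 was 1.89, 5.08 and 4.65 with EGFP, 2.38, 3.68 and 2.36 with OmoMYC and 2.29, 2.52 and 1.84 with SNF5. SNF5 was below EGFP in replicates 2 and 3 and above it in replicate 1, and the log2 value was -0.71 (SE 0.230, edgeR adjusted p = 0.0653). Leaving out 1 replicate number gave log2 values from -1.18 (without replicate 1, edgeR adjusted p = 0.00144) to -0.39. The size and the call therefore depended on the replicates included, and the index did not pass without the replicate block.

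Open chromatin at the 9 loci was read from ATAC-Seq peak lists (hg38), within 50 kb of each gene. The EGFP samples had 21, 25 and 10 peaks there, the OmoMYC samples 6, 36 and 16 and the SNF5 samples 58, 37 and 32. Every SNF5 sample was above every EGFP sample (exact permutation test, two-sided, p = 0.1, the smallest that 3 against 3 samples allow). OmoMYC overlapped both EGFP (exact permutation p = 1.0) and SNF5 (exact permutation p = 0.2). Whole lists also differed, from 7260 to 23684 peaks with EGFP or OmoMYC and from 22722 to 33596 with SNF5, and the loci held 0.168%, 0.140% and 0.109% of the EGFP lists, 0.0826%, 0.152% and 0.131% of the OmoMYC lists and 0.173%, 0.139% and 0.141% of the SNF5 lists. By this share the groups overlapped. Of the strongest 7260 peaks of each list, 7, 7 and 6 lay at these loci with EGFP, 6, 7 and 8 with OmoMYC and 10, 12 and 9 with SNF5. The exact permutation p was again 0.1 for SNF5 against EGFP and against OmoMYC, the smallest possible. This count was not made at other loci, so it cannot show whether these loci differ from the rest.

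Merging the peaks gave 62 sites, and SNF5 samples had peaks at all 62, EGFP samples at 27 and OmoMYC samples at 34. The same count was not made over all merged sites, and every SNF5 list was longer than every EGFP list. A site was counted as gained when all 3 samples of a construct and no EGFP sample had a peak. With SNF5, 3 sites at 2 of the 9 genes were gained, beside 19.8% of 20037 protein-coding genes with at least 1 such site, and none was lost, beside 0.02% of genes. These were 4.84% of the sites at the loci, against 9.09% of all 40005 merged sites. Within 10 kb 2 sites were gained, both at ANKRD1, and within 100 kb 5 (2 at ANKRD1, 2 at YAP1 and 1 at TEAD1). Among the strongest 7260 peaks of each list 2 were gained (1 at ANKRD1 and 1 at CYR61). No share of all genes or sites is given for these other windows and lists. Their counts therefore cannot be set against all genes. With OmoMYC no site was gained or lost, beside 0.19% and 0.0749% of genes. The 9 genes are longer than most (median 81280 bp against 24115 bp), which widens the span searched, and the flanks can hold other genes.

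The gained site at the ANKRD1 promoter (chr10:90921097-90921514) was centred at -218 bp from the start. This site covered both GGAATG matches printed above and a match to the AP-1 motif, TGATTCA, at -195. That motif was present in 7.71% of all promoter windows, and no comparison with other gained sites was made. It was absent from the peak lists of all EGFP and OmoMYC samples and had a fold enrichment of 7.18, 8.72 and 8.53 in the SNF5 samples. A second gained site was centred at -9470 bp from the ANKRD1 start (chr10:90930384-90930730), with 4.96, 4.91 and 6.46. The third lay in the flank past the end of YAP1 (chr11:102268593-102268943), with 5.68, 6.02 and 6.07.

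Promoters of the other genes carried peaks in EGFP samples too. At the CTGF start (chr6:131951118-131951633) the enrichment was 5.45, 6.53 and 4.51 with EGFP, 4.98, 6.85 and 5.66 with OmoMYC and 5.55, 5.88 and 6.06 with SNF5, and the groups overlapped. At the CYR61 start (chr1:85580578-85580912) it was 3.94, 3.74 and 4.72 with EGFP and 3.49, 4.11 and 4.54 with SNF5, while among OmoMYC samples replicate 2 alone had a peak, at 3.82. A site 26597 bp downstream of the CYR61 start (chr1:85607098-85607618) had a peak in 1 EGFP sample (5.49), 1 OmoMYC sample (6.40) and all 3 SNF5 samples (7.98, 8.51 and 7.63).

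**Figure D4:**
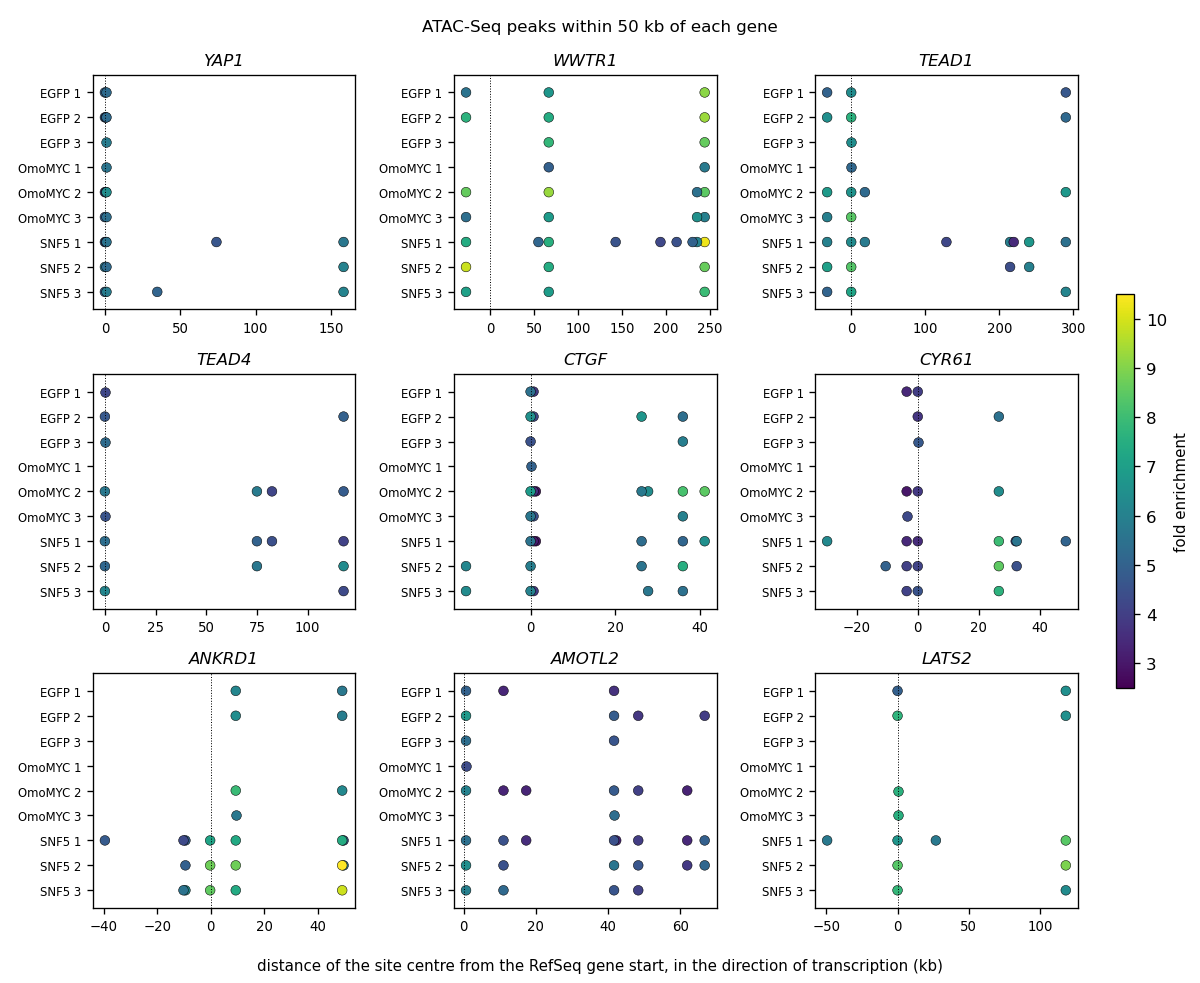
ATAC-Seq peaks at each gene, by distance of the site from the RefSeq start in the direction of transcription (x axis, kb) and by sample (y axis), coloured by fold enrichment. At ANKRD1 a site at the start is present in the 3 SNF5 samples and in none of the other 6, whereas the start sites of TEAD1 and CTGF appear in all 9.

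MYC ChIP-Seq peaks within 1 kb of a start of these genes were found in EGFP replicate 2 alone, at YAP1 (269 bp away, fold enrichment 4.08) and TEAD4 (336 bp away, 4.80). The other EGFP sample and both SNF5 samples had none, and the OmoMYC lists held a placeholder line only. The EGFP lists held 940 and 5396 peaks over the whole genome and the SNF5 lists 137 and 27. In EGFP replicate 2 a peak lay this close to a start of 25.7% of 20149 protein-coding genes, beside 2 of these 9.

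Other genes of the pathway were taken from a pair of lists that leave out the 9 genes. Of 23 Hippo core and regulator genes tested, 8 were higher and 4 lower with SNF5 by gene body reads, and 11 did not pass, against 34.5% of all genes called, 12.4% higher and 22.1% lower (median log2 0.06, beside -0.08 over all genes). With a filter on gene body reads alone, chosen after seeing the data, 29 were tested, of which 12 were higher and 5 lower (median 0.16, beside -0.03 over all genes). No share of all genes called is given for this filter. Those with the largest change were AJUBA (log2 0.73, SE 0.146), a LIM protein that restrains LATS, TAOK3 (0.56, SE 0.113), SAV1 (0.53, SE 0.0523), the scaffold of the MST kinases, PTPN14 (0.42, SE 0.0456), which binds YAP, and TEAD2 (-0.51, SE 0.0687), another TEAD factor. SAV1 had 2257, 1724 and 2265 gene body reads with EGFP, 2188, 1753 and 2288 with OmoMYC and 3824, 2989 and 3163 with SNF5, with no overlap between SNF5 and the others. The edgeR adjusted p of these 5 genes ran from 0.000289 to 0.00673. TAOK3 no longer passed without replicate 1 or 2 (edgeR adjusted p = 0.0503 and 0.0514). With OmoMYC 1 of the 23 was higher, TAOK3 (0.61, SE 0.113), and 1 lower, DLG5 (-0.28, SE 0.0494), against 12.4% of all genes called.

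Of 12 further YAP and TAZ targets tested, 5 were higher and 1 lower with SNF5, and 6 did not pass, against the same 12.4% and 22.1% of all genes (median log2 0.10, beside -0.08 over all genes). With the filter on gene body reads alone, 17 were tested, of which 7 were higher and 1 lower (median 0.50, beside -0.03), again without a share of all genes called. PTPN14 stands in both lists. CCDC80 rose most (log2 2.70, SE 0.404), followed by AXL, a receptor tyrosine kinase (0.98, SE 0.119), RBMS3 (0.93, SE 0.0924) and GADD45A, a stress-response gene (0.55, SE 0.104), while IGFBP3, an IGF-binding protein, fell by 0.55 (SE 0.104). CCDC80 had 17, 11 and 101 gene body reads with EGFP, 20, 16 and 123 with OmoMYC and 176, 205 and 307 with SNF5, so replicate 3 was here the highest in each construct. Leaving out replicate 3 raised its log2 change to 3.49, whereas leaving out replicate 1 or 2 gave 2.56 or 2.30. IGFBP3 had 1901, 1970 and 16 with EGFP and 1535, 1664 and 5 with SNF5, and RBMS3 had 16211, 17202 and 1300 with EGFP and 34304, 37450 and 2675 with SNF5, with replicate 3 lowest as for ANKRD1. The edgeR adjusted p of the 5 genes ran from 0.000291 to 0.00545. IGFBP3 no longer passed without replicate 1 or 2 (edgeR adjusted p = 0.0903 and 0.0932), and GADD45A without replicate 2 (0.0587). With OmoMYC, against 12.4% of all genes called in either direction, 2 of the 12 were higher, TGFB2 (0.49, SE 0.0842) and RBMS3 (0.33, SE 0.0919), and none was lower. Neither these nor the DLG5 and TAOK3 changes with OmoMYC passed without replicate 1 or 2 (edgeR adjusted p from 0.359 to 0.447), and no pathway gene named here passed without the replicate block.

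**Figure D5:**
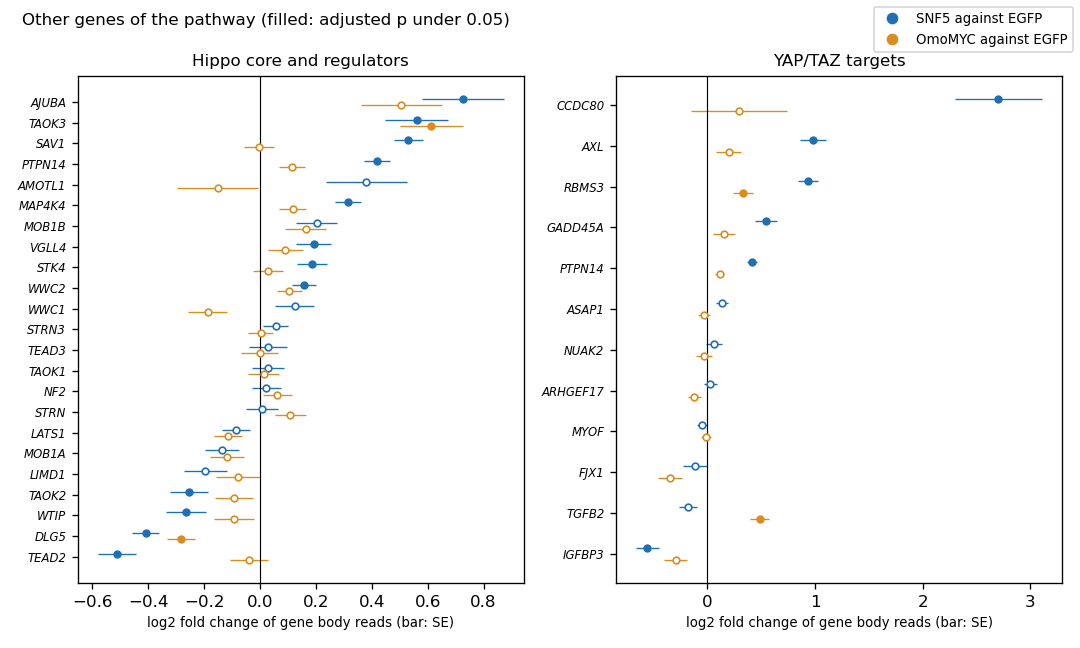
Log2 fold change of gene body reads (x axis, bar: SE) of the other pathway genes with SNF5 and with OmoMYC, each against EGFP; filled points have an adjusted p under 0.05. CCDC80 with SNF5 lies farthest from 0, at 2.70, and TEAD2 is the lowest regulator, at -0.51.

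Over the 9 PRO-Seq samples, after the mean of each replicate number was subtracted, the genes with the pattern most like that of CTGF were COMMD10 (Pearson r = 0.997), TSC22D2 (0.997) and MTSS1 (0.994), and those most like CYR61 were CACNA1D (0.991), SDK1 (0.984) and CTNNA2 (0.983). These values are a description over 13053 genes compared, in which 1 in 100 reached 0.965 for CTGF and 0.940 for CYR61. Correlation leaves the size of a change aside. With a filter on gene body reads alone, COMMD10, TSC22D2 and MTSS1 had log2 changes with SNF5 of 0.28, 0.74 and 1.69. CACNA1D, SDK1 and CTNNA2 had 1.62, 1.40 and 1.27. In the main fit CTGF had 0.72 and CYR61 0.65.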

How the data were processed

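The authors trimmed PRO-Seq and ATAC-Seq reads with cutadapt, aligned all reads with Bowtie2 (PRO-Seq and ChIP-Seq to hg19, ATAC-Seq to hg38) and called ChIP-Seq and ATAC-Seq peaks per sample with MACS2. The deposited PRO-Seq table holds raw counts per transcript for the promoter-proximal window and gene body, and a gene body density. Gene body lengths, used for the scaled RPKM and the pausing index, were derived from gene body counts and this density. The deposited peak lists give a fold ratio, −log10 p and q, and a score; they hold no read counts.

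The quasi-likelihood test of edgeR 4.0.16 (R 4.3.3) was applied to these counts with the replicate number as a block, after the study's batch term, with 1 transcript per symbol and a mean of at least 10 reads in both regions. Both regions were scaled by the gene body total and its RLE factor. DESeq2 1.42.0 was an alternative. Deviations from construct means correlated at 0.854 to 0.926 for samples sharing a number and at -0.774 to 0.234 otherwise, so numbers were taken as pairs. Pathway genes were named by the largest change among those past 0.05, up to 5 per list and construct. Similar patterns used genes with a mean of at least 50 gene body reads. Scripts were tested on simulated data. Peaks within 50 kb of a gene were counted, with exact permutation tests. Figures and other values used Python 3.11.15 with SciPy 1.17.1. The members and lists were chosen with earlier results of these data known.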

Additional observations from a re-analysis of the deposited data

How the results depend on the processing

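Without the replicate block, 0 of the 8 genes were called in any comparison of gene body reads, promoter-proximal reads or pausing index, and over all genes gene body calls were 92 with SNF5, 1 with OmoMYC and 41 between them, beside 3852, 1388 and 1794 with it. Leaving out 1 replicate number, gene body calls among the 8 ran from 3 to 5 with SNF5, 0 to 5 with OmoMYC and 2 to 6 between them; promoter-proximal calls ran from 0 to 2, 0 to 1 and 0 to 1, and pausing index calls with SNF5 from 0 to 1. Over all genes these omissions gave 785 to 6812, 2 to 5823 and 317 to 4812 gene body calls, highest without replicate 3. Over all genes and all alternatives, promoter-proximal calls ran from 0 to 1011 with SNF5, 0 to 850 with OmoMYC and 0 to 494 between them, beside 482, 204 and 89, and pausing index calls from 0 to 617, 0 to 954 and 0 to 471, beside 409, 252 and 137. Gene body calls over all genes between SNF5 and OmoMYC were 2858 with a filter on gene body reads and 2891 with no further filter. Fitting only the 2 constructs compared, promoter-proximal calls among the 8 genes were 1 with SNF5 and 2 between SNF5 and OmoMYC. No share of all genes is given for this fit. In it the TEAD4 gene body difference between SNF5 and OmoMYC no longer passed (edgeR adjusted p = 0.0697). In the fit of all 3 constructs, DESeq2 called 0 of the 8 by promoter-proximal reads between SNF5 and OmoMYC, again without a share of all genes. TMM factors, DESeq2, no further filter and a filter on the region tested (added after seeing the data) left every gene body call of the 8 genes on its side of the threshold. Directions that turned when a replicate was left out belonged to values that had not passed: gene body log2 values ran from -0.031 to 0.195 for AMOTL2 with SNF5, -0.0068 to 0.032 for TEAD1 with OmoMYC and -0.042 to 0.107 for LATS2 between constructs. Promoter-proximal values ran from -0.028 to 0.182 for TEAD4 and -0.46 to 0.27 for CYR61 with SNF5, and with OmoMYC from -0.407 to 0.019 for YAP1, -0.31 to 0.10 for TEAD1, -0.38 to 0.25 for CYR61 and -0.0068 to 0.214 for CTGF, which was -0.029 without the block. The mean difference in ATAC-Seq peaks between OmoMYC and EGFP ran from -4.5 to 8.5. The cause was not tested. Peak lists without read counts cannot show how far a missing peak lay below the calling threshold.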
